A study of Mus musculus with 5 samples.

Results

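Matrix metalloproteinases (MMPs), the ADAMTS proteases with their ADAMTS-like relatives, and the tissue inhibitors of metalloproteinases (TIMPs) were followed here in a mouse glioma and in normal mouse brain. The members were chosen by name: every gene whose symbol began with Mmp and a digit, was Timp1 to Timp4, or began with Adamts. The reference annotation held 51 such genes. Probes on the array matched 50 of them, among 21149 named genes in all. The remaining gene, Mmp27, matched no probe and entered only the counts of upstream sequences and of the chromosome 9 run. Total RNA came from gliomas (tumours of glial character) of mice of a model named MADM, for mosaic analysis with double markers, a method that leaves sparse colour-marked mutant cells after mitotic recombination. It was compared with RNA of normal brain. All samples were of postnatal day 150. There were 3 glioma samples and 2 normal brain samples, each on its own single-colour Agilent mouse expression array. The mutated genes, the strain and the brain region are not given in the sources used here. Whether replicates were separate animals is not stated in the labels, and the p-values therefore reflect only how these samples vary, which may be technical. Fewer cells of a type and less RNA per cell cannot be told apart in such bulk samples.

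MMPs are zinc-dependent proteases that cut collagens, basement membrane and cell surface proteins. Most are secreted as inactive precursors, and a membrane-type group is anchored to the cell surface, where Mmp14 activates Mmp2 with Timp2 as the bridging partner. ADAMTS enzymes are secreted proteases with thrombospondin repeats. Some of them cut the hyaluronan-binding proteoglycans that fill the spaces between brain cells, others process procollagens or act on microfibrils, and the ADAMTS-like proteins share the repeats but lack the protease domain. TIMPs block MMPs, and Timp3 also blocks several ADAM and ADAMTS enzymes.

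A run of 10 MMP genes, from Mmp13 to Mmp7, lies on chromosome 9 with no other protein-coding gene between them in the GRCm38.p6 annotation. Of its members with a probe, only Mmp3 (gliomas 2 and 3) and Mmp12 (glioma 3) were well above background on any array. Mmp15, on chromosome 8, was among the largest increases. The sequences upstream of 3 starts are shown for this contrast, each as 250 bases before the RefSeq transcription start (GRCm38.p6, plus strand). Capitals in Mmp3 (chr9:7445572-7445821) and Mmp13 (chr9:7272264-7272513) mark the letters of an AP-1 motif and of a TATA motif, and capitals in Mmp15 (chr8:95352046-95352295) mark CpG dinucleotides.
Mmp3: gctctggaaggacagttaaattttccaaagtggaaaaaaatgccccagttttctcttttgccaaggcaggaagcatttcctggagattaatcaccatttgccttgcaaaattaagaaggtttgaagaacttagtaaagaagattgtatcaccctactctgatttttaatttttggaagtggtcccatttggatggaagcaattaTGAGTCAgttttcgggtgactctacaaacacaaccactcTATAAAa
Mmp13: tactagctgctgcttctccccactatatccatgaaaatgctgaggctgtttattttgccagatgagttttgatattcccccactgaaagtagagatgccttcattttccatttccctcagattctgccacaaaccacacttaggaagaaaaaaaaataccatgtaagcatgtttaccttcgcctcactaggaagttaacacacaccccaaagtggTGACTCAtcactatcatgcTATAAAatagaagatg
Mmp15: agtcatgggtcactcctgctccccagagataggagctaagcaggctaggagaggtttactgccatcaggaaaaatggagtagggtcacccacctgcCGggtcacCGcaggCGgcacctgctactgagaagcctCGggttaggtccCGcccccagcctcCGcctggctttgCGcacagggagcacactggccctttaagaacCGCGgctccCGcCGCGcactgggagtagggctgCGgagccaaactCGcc
Both chromosome 9 sequences hold a single AP-1 motif and a single TATA motif and only 1 CpG each, while the Mmp15 sequence holds 14 CpGs and neither motif.

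Levels are given below as log2 of the scanner's processed signal, relative to the 75th percentile of the array, so 0 is the level of that percentile. Levels of different probes are not compared. A probe was taken as detected where the scanner software marked it as well above background. Of the 50 members, 28 were detected on all 5 arrays, 10 on none, and 3, 4, 4 and 1 on 1, 2, 3 and 4 arrays. The 37 members detected on at least 2 arrays were tested within the fit over 16891 genes. A member detected in only 1 group entered the test through that group, so the counts of tested members describe them and support nothing further. In limma's test with Benjamini-Hochberg adjustment over all genes, 13 members were higher in glioma and 16 lower at an adjusted p under 0.05, and 8 were not called. Among all genes tested, 51.4% were called, 23.6% as higher and 27.8% as lower. The median log2 difference was 0.10 over the tested members and -0.05 over all tested genes. Groups did not overlap in 32 of the 37 members, against 74.1% of all genes. The calls rested on both normal brain arrays: without normal brain replicate 1 there were 9 higher and 8 lower, and without replicate 2 there were 10 and 9. The share of all genes called fell in the same fits, to 27.4% and 27.5%. In the deposited values without scaling between arrays, the median difference over all genes was 0.31, a shift of 0.36 from the scaled values, and 15 members were higher and 12 lower. Higher calls then made up 55.6% of the member calls against 44.8% in the scaled values, and 63.7% of the calls over all genes against 46.0%.

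**Figure D1:**
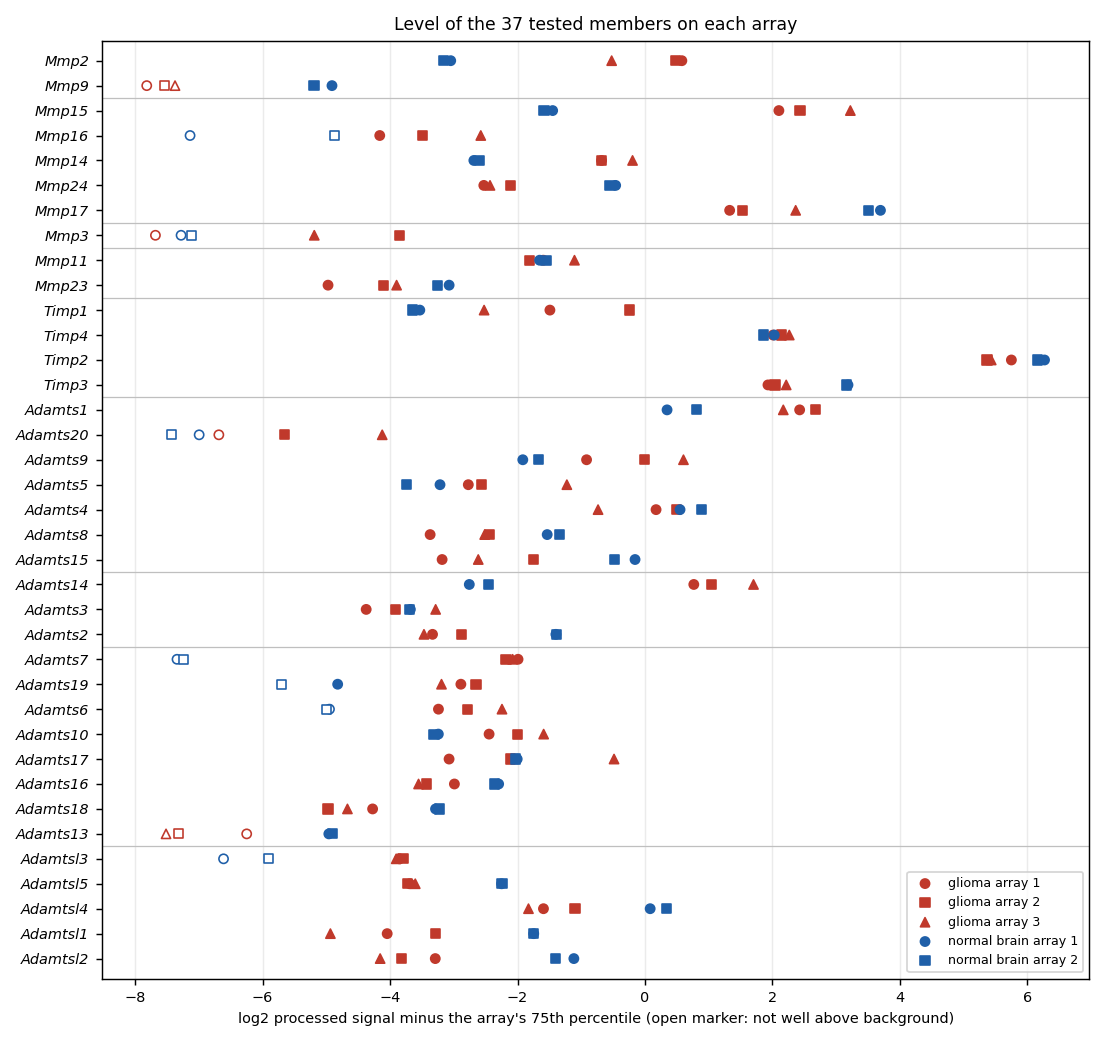
Level of each of the 37 tested members on the 5 arrays, as log2 signal relative to the array's 75th percentile, grouped by family (grey lines), with gliomas in red, normal brain in blue and open markers where the probe was not well above background. The gliomas span a wider range than the normal brain arrays in 34 of the 37 members, as for Adamts17, which runs from -3.07 to -0.49 in glioma, and a narrower one in Mmp16, Adamts19 and Adamtsl3. A range over 3 arrays is on average wider than one over 2 at equal spread. Over all tested genes the median ranges were 0.50 in glioma and 0.10 in normal brain.

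The gliomas differed among themselves. The range over the 3 glioma arrays had a median of 0.94 in the tested members, against 0.50 in all tested genes, and exceeded 1 log2 unit in 16 of 37 members (43.2%), against 19.1% of all genes. The range between the normal brain arrays had a median of 0.14 in the members and 0.10 in all genes. The glioma ranges of Mmp3, Adamts20 and Adamts13, each over 1, include undetected signal. Members and all genes were not matched by level, so the wider ranges are not read as a trait of the members. Glioma 3 was the highest glioma in 18 of the 37 members and glioma 1 the lowest in 19. These counts were not made over all genes and include undetected signal, so they are not read as a trait of the members. Glioma 3 also differed from the other 4 samples in that Xist, the RNA of the inactive X chromosome, was detected on its array only.

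The gelatinases Mmp2 and Mmp9, which cut denatured collagen and the type IV collagen of basement membranes, moved in opposite directions. Mmp2 stood at 0.58, 0.47 and -0.52 on glioma arrays 1 to 3 and at -3.05 and -3.16 on normal brain arrays 1 and 2. Every glioma lay above both normal brain arrays by more than 2 log2 units, with glioma 3 the lowest of the gliomas. The difference was 3.28 ± 0.37 (SE of the limma fit, here and below, n = 3 and 2, adjusted p = 0.00185). Mmp9 stood at -4.91 and -5.19 in normal brain, where both arrays detected it, and at -7.82, -7.53 and -7.37 in the gliomas, where none did. It was at least 2.01-fold lower in glioma (adjusted p = 0.000704). Such lower bounds set the detected group's mean against each array's lowest detected level, or the probe's own level where that is higher. They hold for the processed signal. Some probes went undetected above that lowest level. Mmp12 did so on glioma array 2, at -5.78 against -6.08, so the bounds are approximate. The adjusted p beside a bound, here and below, belongs to the fitted difference, which uses undetected signal, and does not test the bound. A member given by a bound also passed the filter only through the group that detected it. Neutrophils are a known source of Mmp9 and Mmp8. Of 6 neutrophil and monocyte markers on the array, 4 were detected on no normal brain array and 2 on no glioma array, and their mean level ranged from -6.31 to -5.09 in the gliomas and from -5.41 to -5.18 in normal brain. Of the 2 that could be tested, the granule peptide gene Camp, detected on all arrays, was lower in glioma (-1.09 ± 0.17, adjusted p = 0.00517), and S100a9 was not called. Their part in the Mmp9 difference was not tested.

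Of the 6 membrane-type MMPs, 3 rose, 2 fell and Mmp25 was detected on no array, in a fit that called 51.4% of all genes. Those that rose were Mmp14, Mmp15 and Mmp16, which, like Mmp24, one of those that fell, are held in the membrane by a transmembrane segment. Mmp15 stood at 2.10, 2.43 and 3.22 in gliomas 1 to 3 and at -1.45 and -1.59 in normal brain, and its difference of 4.10 ± 0.35 was the largest among the members detected on all 5 arrays (adjusted p = 0.000888). Mmp14, the activator of Mmp2, stood at -0.68, -0.68 and -0.20 in glioma and at -2.69 and -2.60 in normal brain. The groups were well apart, and the difference was 2.12 ± 0.21 (adjusted p = 0.00117). Mmp16 stood at -4.16, -3.49 and -2.58 in glioma and was not detected in normal brain, where its signal was -7.14 and -4.87. It was at least 4.29-fold higher in glioma (adjusted p = 0.0448), but this call was lost without glioma replicate 1, 2 or 3 (adjusted p = 0.0572, 0.105 and 0.107) and without normal brain replicate 1 (0.17), where the fitted difference, set against undetected signal, went from 2.59 to 1.46. Glioma 3 had the highest level of all 3 genes.

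The membrane-type MMPs that fell were Mmp17, which is held by a lipid anchor, and Mmp24, a protease known from neurons. Mmp17 stood at 1.33, 1.53 and 2.36 in glioma and at 3.69 and 3.50 in normal brain, so that glioma 3 was nearest to normal brain. The difference was -1.86 ± 0.34 (adjusted p = 0.0088), with an adjusted p of 0.0591 without normal brain replicate 1. Mmp24 stood at -2.53, -2.12 and -2.43 in glioma and at -0.46 and -0.55 in normal brain. Its difference was -1.85 ± 0.18 (adjusted p = 0.00114), and a second Mmp24 probe gave -1.88. All 8 neuron markers examined were lower in glioma as well, against 27.8% of all tested genes. These markers had mean levels of 1.02 to 1.76 in the gliomas and 4.94 to 4.96 in normal brain. Their part in the Mmp24 difference was not tested.

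**Figure D2:**
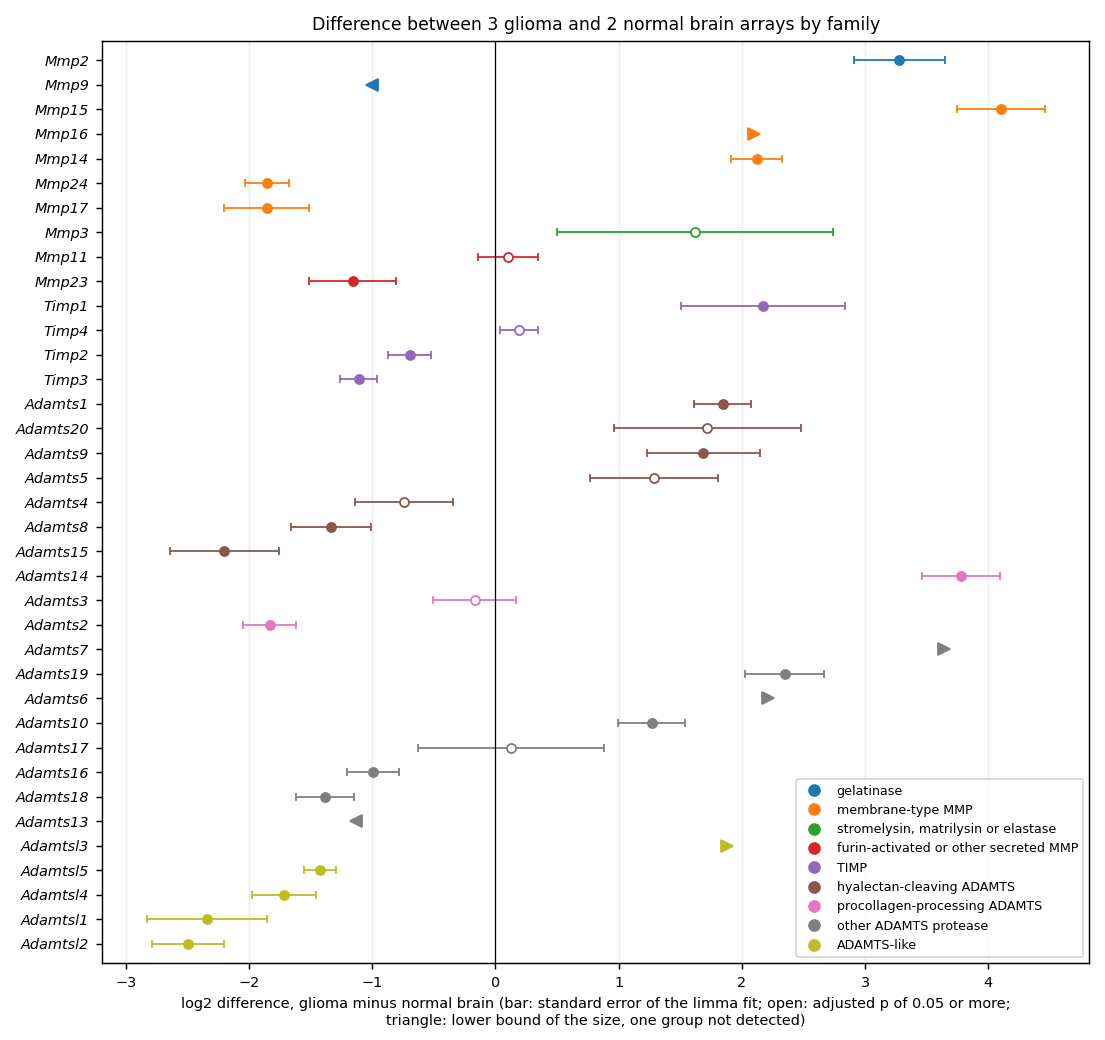
Log2 difference between glioma (3 arrays) and normal brain (2 arrays) for the 37 tested members, coloured by family, with the standard error of the limma fit as bars and open circles for members that were not called. Triangles mark the lower bound on the size for the 6 members of which one group was not detected on any array, and Mmp3 and Adamts20, undetected in normal brain and in 1 glioma, are drawn at fitted differences against undetected signal. Every family with more than 2 tested members holds genes on both sides of 0, and among members detected on all arrays the differences run from Mmp15 at 4.10 to Adamtsl2 at -2.50.

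The other secreted MMPs were mostly at or near background. The 9 genes of the chromosome 9 run that have a probe include the collagenases Mmp1a, Mmp1b, Mmp8 and Mmp13, the stromelysins Mmp3 and Mmp10, the matrilysin Mmp7, the macrophage elastase Mmp12 and the enamel protease Mmp20. Only Mmp3 and Mmp12 were detected anywhere. Mmp3 stood at -3.85 and -5.19 in gliomas 2 and 3, which detected it, and at -7.68 in glioma 1 and -7.28 and -7.11 in normal brain, which did not. It was not called over all samples (adjusted p = 0.275) and was called without glioma replicate 1 (adjusted p = 0.0184). Mmp12 was detected in glioma 3 only, at -5.26, and its signal on the other arrays lay between -7.10 and -5.78. The remaining 7 had signals of -8.06 to -5.74 on the 5 arrays, and their level in these samples was not measurable.

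**Figure D3:**
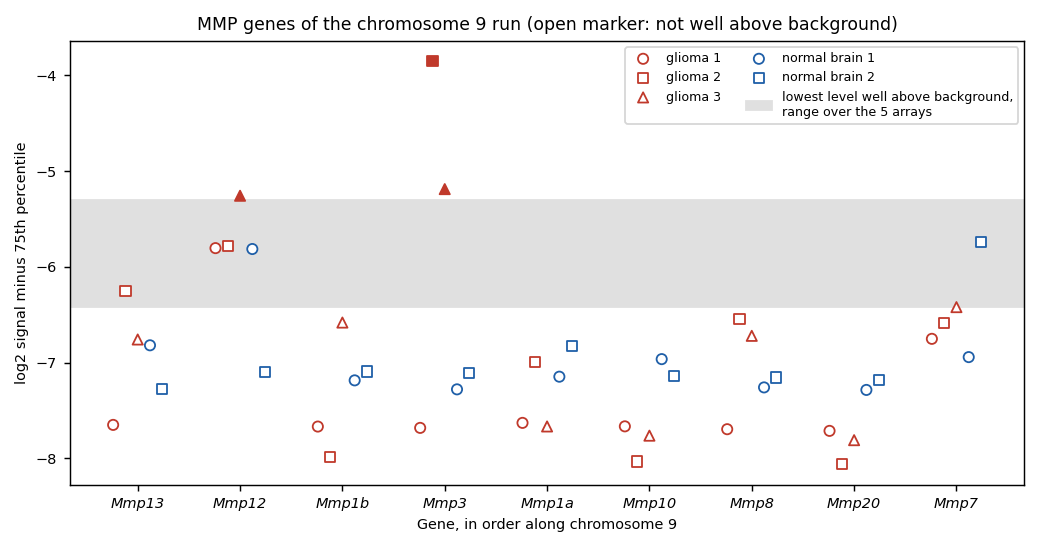
Log2 signal relative to the 75th percentile for the 9 MMP genes of the chromosome 9 run that have a probe, in their order along the chromosome, with filled markers where the probe was detected and a grey band for the range over arrays of the lowest detected level (-6.42 to -5.30). The filled markers are Mmp3 in gliomas 2 and 3 and Mmp12 in glioma 3.

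Outside this run, Mmp21, Mmp25 and Mmp28 were detected on no array and Mmp19 in glioma 2 only, at -5.90. Mmp11, a stromelysin that furin activates inside the cell, was detected on all arrays and was not called (0.10 ± 0.24, adjusted p = 0.748), and its difference turned to -0.10 without glioma replicate 3. Mmp23 fell, from -3.07 and -3.26 in normal brain to -4.97, -4.10 and -3.90 in glioma, a difference of -1.16 ± 0.35 (adjusted p = 0.0432). That call was lost without glioma replicate 2 (adjusted p = 0.0749), without normal brain replicate 1 (0.182) or 2 (0.133), and in the values without scaling between arrays (0.124).

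The upstream sequences of the chromosome 9 run also differed in composition from those of the other members. Upstream windows of 250 bases were found by symbol for 36 of the 51 members. The AP-1 motif was searched as TGAGTCA or TGACTCA, which are each other's reverse complement, so that both strands were covered. It occurred in the windows of 7 of the 10 genes of the run (Mmp13, Mmp12, Mmp1b, Mmp3, Mmp1a, Mmp10 and Mmp7), in none of the 26 other members, and in 4.46% of all 32851 windows in the reference table. The TATA motif, TATAAA or TTTATA, occurred in 7 of the 10 and in 3 of the 26, against 12.4% of all windows. The CpG count of the windows had a median of 1 in the run, 16 in the other members and 6 in all windows. The 19 members with a window that were detected on all arrays had 2 to 35 CpGs with a median of 17, and the 10 detected on none had 0 to 17 with a median of 1. Most of the undetected genes belong to the run (Mmp1a, Mmp1b, Mmp7, Mmp8, Mmp10, Mmp13 and Mmp20), so this contrast largely repeats that of the run. Outside the run, the undetected Mmp25 and Mmp28 had 17 and 15 CpGs and the undetected Mmp21 had 1. Timp4, detected on all arrays, had 2. Among members with a window, those that were higher in glioma had a median of 15 CpGs and those that were lower 18. A match to these letters is a description of the sequence and does not show that a factor binds there.

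**Figure D4:**
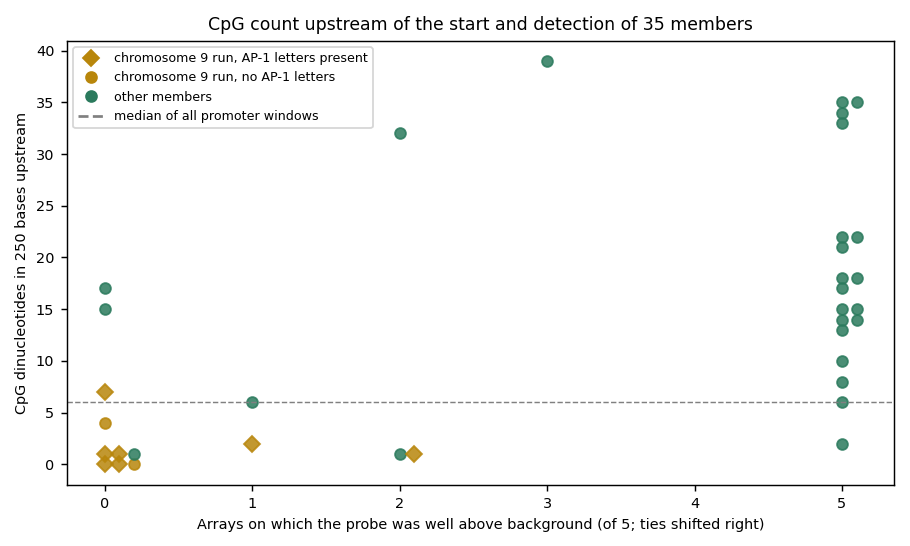
Number of CpG dinucleotides in the 250 bases upstream of the start against the number of arrays on which the gene was detected, for the 35 members with a probe and a window, with genes of the chromosome 9 run in ochre, diamonds where the AP-1 letters occur, and a dashed line at the median of all windows, 6. Genes of the run sit at the lower left with 0 to 7 CpGs, and most members detected on all arrays lie above the line.

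The TIMPs did not move together. Timp1, an inducible inhibitor on the X chromosome, stood at -1.49, -0.24 and -2.52 in gliomas 1 to 3 and at -3.53 and -3.65 in normal brain. All gliomas lay above normal brain, with glioma 2 highest and glioma 3 lowest. The difference of 2.17 ± 0.67 had an adjusted p of 0.0437, which became 0.0961 without glioma replicate 1, 0.141 and 0.156 without normal brain replicate 1 or 2, and 0.052 with normexp background correction. Timp3, the inhibitor bound to the extracellular matrix, stood at 1.93, 2.04 and 2.22 in glioma and at 3.18 and 3.16 in normal brain. It fell by 1.11 ± 0.15 (adjusted p = 0.00317), and this call held under every alternative run. Timp4 stood at 2.01, 2.14 and 2.26 in glioma and at 2.03 and 1.86 in normal brain, with overlapping groups, and was not called (0.19 ± 0.15, adjusted p = 0.338), though it was without scaling between arrays (0.55, adjusted p = 0.0498).

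For Timp2 the direction depended on the probe. The brighter probe stood at 5.75, 5.37 and 5.43 in glioma and at 6.27 and 6.15 in normal brain, a difference of -0.69 ± 0.17 (adjusted p = 0.0239). The second probe, also detected on all arrays, stood at 2.54, 2.46 and 1.35 in glioma and at 1.15 and 1.02 in normal brain, a difference of 1.03 that was not called (adjusted p = 0.0973 in a fit over probes). With the probes averaged, the difference was 0.17 (adjusted p = 0.61). The call on the brighter probe was also lost without glioma replicate 2 (adjusted p = 0.0581), without normal brain replicate 1 (0.164) or 2 (0.117), and without scaling between arrays (0.175). Both probes were assigned to Timp2 by their accession, and which transcripts each detects is not given in the sources used here. Of 8 members with a second detected probe, the other 7 had the same sign on both probes.

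**Figure D5:**
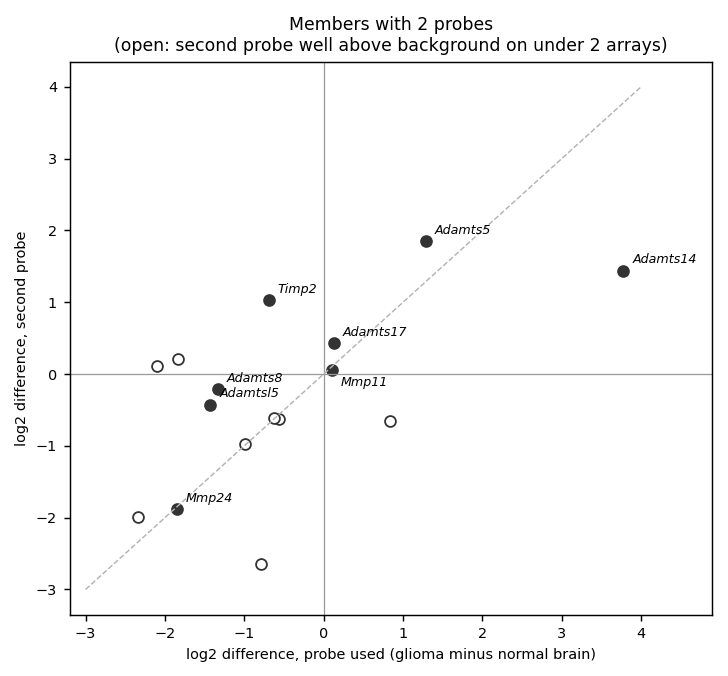
Log2 difference (glioma minus normal brain) of the second probe against that of the probe used, for the 16 members with 2 probes; filled points are the 8 whose probes were both detected on at least 2 arrays, and the dashed line marks equal values. Timp2 is the only filled point in a quadrant of opposite signs, at -0.69 and 1.03.

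Among the 7 ADAMTS enzymes that cut hyaluronan-binding proteoglycans, 2 rose, 2 fell and 3 were not called. Over all tested genes, 51.4% were called. Adamts1, known to cut versican and aggrecan, stood at 2.43, 2.67 and 2.17 in glioma and at 0.35 and 0.81 in normal brain. It rose by 1.84 ± 0.23 (adjusted p = 0.00258). Adamts9, also a versican-cleaving enzyme, stood at -0.92, -0.01 and 0.60 in glioma and at -1.92 and -1.68 in normal brain. The gliomas lay above normal brain by a margin smaller than their own range, and the difference of 1.69 ± 0.46 (adjusted p = 0.0307) was not called without glioma replicate 2 (0.0854) or without normal brain replicate 1 (0.138) or 2 (0.102). Adamts15 stood at -3.18, -1.75 and -2.62 in glioma and at -0.16 and -0.48 in normal brain. It fell by 2.20 ± 0.44 (adjusted p = 0.0115, or 0.0699 without normal brain replicate 1). Adamts8 stood at -3.37, -2.43 and -2.52 in glioma and at -1.53 and -1.34 in normal brain, a difference of -1.33 ± 0.33 (adjusted p = 0.022). This call was lost without normal brain replicate 1 (adjusted p = 0.0862) or 2 (0.117) and without scaling (0.0731), and a second Adamts8 probe gave -0.21.

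Adamts4 and Adamts5, the main aggrecan-cleaving enzymes of cartilage, were not called. Adamts4 stood at 0.17, 0.49 and -0.74 in glioma and at 0.55 and 0.89 in normal brain (-0.74 ± 0.40, adjusted p = 0.173). Adamts5 stood at -2.77, -2.57 and -1.23 in glioma and at -3.22 and -3.74 in normal brain (1.29 ± 0.52, adjusted p = 0.0913). Its second probe, at -3.0, -3.27 and -2.93 in glioma and -4.58 and -5.26 in normal brain, was called (1.85, adjusted p = 0.00454 in the fit over probes). Adamts5 was also called without glioma replicate 3, where its difference was 0.81 (adjusted p = 0.049), and without scaling between arrays (1.64, adjusted p = 0.0331). Adamts20 was detected in gliomas 2 and 3, at -5.66 and -4.12, and not in glioma 1 or normal brain, and was not called (adjusted p = 0.114), although it was without glioma replicate 1 (adjusted p = 0.0383). These genes include neighbouring pairs with no protein-coding gene between them. Adamts1 and Adamts5 on chromosome 16 both had levels above normal brain in every glioma, and Adamts15 and Adamts8 on chromosome 9 both had levels below it in every glioma. Such lack of overlap was found in 74.1% of all tested genes, in either direction, so the agreement within pairs is not read further.

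The procollagen-processing enzymes, which trim the amino-terminal propeptides of fibrillar collagens, also divided. Adamts14 stood at 0.77, 1.05 and 1.70 in glioma and at -2.76 and -2.46 in normal brain, and rose by 3.78 ± 0.31 (adjusted p = 0.00081). Its second probe gave a smaller difference, 1.44. Adamts2 stood at -3.33, -2.88 and -3.47 in glioma and at -1.40 and -1.39 in normal brain, and fell by 1.83 ± 0.22 (adjusted p = 0.00213). Adamts3 was not called (-0.17 ± 0.34, adjusted p = 0.702), and its difference turned to 0.09 without glioma replicate 1 and to 0.19 without scaling. Of 8 markers of mural cells and fibroblasts, cells known to make fibrillar collagen, 7 were lower in glioma, against 27.8% of all tested genes. These markers had mean levels of -1.17 to -0.70 in glioma and 0.91 to 0.94 in normal brain. Their part in the Adamts2 difference was not tested.

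Of the other ADAMTS proteases, 4 rose and 3 fell, against 23.6% higher and 27.8% lower among all tested genes. Adamts7, known to cut cartilage oligomeric matrix protein, stood at -1.99, -2.18 and -2.08 in the gliomas and was not detected in normal brain, where its signal was -7.34 and -7.23. It was at least 12.5-fold higher in glioma (adjusted p = 0.000328), and the gliomas differed among themselves by less than 0.2 log2 units. Adamts6 stood at -3.24, -2.78 and -2.24 in glioma and was not detected in normal brain, at -4.95 and -4.99, and was at least 4.65-fold higher (adjusted p = 0.00364). Adamts19 stood at -2.89, -2.65 and -3.19 in glioma, and in normal brain at -4.82, where it was detected, and -5.70, where it was not (2.35 ± 0.32, adjusted p = 0.00327). Adamts10, which binds fibrillin microfibrils, stood at -2.45, -1.99 and -1.59 in glioma and at -3.24 and -3.31 in normal brain. The difference of 1.27 ± 0.28 had an adjusted p of 0.0151, or 0.0785 and 0.0878 without normal brain replicate 1 or 2.

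Lower in glioma were Adamts13, Adamts16 and Adamts18. Adamts13, the protease of von Willebrand factor in plasma, stood at -4.96 and -4.90 in normal brain and was not detected in the gliomas, at -6.25, -7.32 and -7.51. It was at least 2.19-fold lower (adjusted p = 0.0106, or 0.0571 and 0.0608 without normal brain replicate 1 or 2). Adamts18 stood at -4.27, -4.97 and -4.67 in glioma and at -3.29 and -3.22 in normal brain (-1.39 ± 0.24, adjusted p = 0.00693, or 0.0541 without normal brain replicate 2). Adamts16 stood at -2.99, -3.43 and -3.55 in glioma and at -2.30 and -2.36 in normal brain. Its difference of -0.996 ± 0.21 (adjusted p = 0.0139) was not called without normal brain replicate 1 or 2 (0.0956 and 0.0817) or without scaling (0.0662). Adamts17 had the widest range among the gliomas of the members detected on all arrays, at -3.07, -2.12 and -0.49, around -2.01 and -2.03 in normal brain, and was not called (0.13 ± 0.76). Its difference turned to -0.58 without glioma replicate 3. Adamts12, the close relative of Adamts7, was detected on normal brain array 1 only, at -4.39, and was not tested.

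Of the 5 ADAMTS-like genes, 4 fell and 1 rose, against 27.8% lower and 23.6% higher among all tested genes. Adamtsl2, whose product binds fibrillin and latent TGF-beta binding protein, stood at -3.29, -3.82 and -4.16 in glioma and at -1.12 and -1.40 in normal brain, and fell by 2.50 ± 0.29 (adjusted p = 0.00202). Adamtsl1 stood at -4.05, -3.29 and -4.94 in glioma and at -1.75 on both normal brain arrays (-2.34 ± 0.49, adjusted p = 0.0131, or 0.0665 and 0.0664 without normal brain replicate 1 or 2). Adamtsl4, a microfibril-associated protein, stood at -1.59, -1.10 and -1.83 in glioma and at 0.08 and 0.34 in normal brain, and fell by 1.72 ± 0.26 (adjusted p = 0.00448). Adamtsl5 stood at -3.69, -3.72 and -3.60 in glioma and at -2.25 and -2.24 in normal brain, and fell by 1.43 ± 0.13 (adjusted p = 0.001), with -0.42 on its second probe. Adamtsl3 went the other way. It stood at -3.85, -3.80 and -3.90 in glioma and was not detected in normal brain, at -6.61 and -5.91, and was at least 3.67-fold higher (adjusted p = 0.00125).

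Dim probes gave smaller differences when the background was corrected by normexp with an offset of 50, which shrinks ratios near background. The same fit then applied quantile normalization to the arrays. All 29 called members kept their sign, and 28 their call, but 12 had differences more than 1.5 times smaller. In that fit, undetected groups included, Adamts7 differed by 2.06, Adamts19 by 1.04, Adamts6 by 0.94, Mmp16 by 0.79 and Adamtsl3 by 0.57. On the lower side, Adamtsl1 differed by -1.32, Adamtsl5 by -0.80, Adamts18 by -0.59, Adamts16 and Mmp23 by -0.54 each, Mmp9 by -0.44 and Adamts13 by -0.39. Mmp2, Mmp14, Mmp15 and Adamts14 kept differences of 2.67, 1.74, 3.84 and 3.26. Quantile normalization without normexp changed no call or sign among the 37 tested members.

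Genes that work with these proteases were read from 3 lists of activators and inhibitors, ADAM proteases and substrates. Of 23 tested activators and inhibitors, 7 rose and 7 fell, with a median log2 difference of 1.01. That is 60.9% called, against 51.4% of all genes, and 30.4% in each direction, against 23.6% higher and 27.8% lower. The protease inhibitor gene Serpine2 rose by 3.21 ± 0.24, and Tfpi2, detected in 2 of 3 gliomas and not in normal brain, also passed (adjusted p = 0.039). The neuronal inhibitor gene Serpini1 and the testican gene Spock1 fell, with differences of -3.55 ± 0.29 and -3.77 ± 0.34, and Spock3 was at least 6.26-fold lower. Reck, a membrane-anchored MMP inhibitor, was not called (0.24 ± 0.34). The number of rising genes in this list was 4 without glioma replicate 2, 2 and 3 without normal brain replicate 1 or 2, and 11 without scaling. Of 11 tested ADAM genes, 3 rose and 5 fell, and the median difference was -0.54. The share called was 72.7%, with 27.3% higher and 45.5% lower. Adam9, Adam12 and Adam17, the TNF-converting enzyme, rose by 1.65 ± 0.16, 1.31 ± 0.26 and 1.06 ± 0.16, and Adam11, Adam23 and Adam22, which lack protease activity, fell, with differences of -2.36, -1.81 and -1.02. Adam15 and Adam19, which are active proteases, fell as well, with differences of -1.02 and -0.59. Falling ADAM genes numbered 3 without scaling and 2 without either normal brain replicate.

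Of 28 substrate and matrix genes, 9 rose and 4 fell, and the median difference was 0.05. The share called, 46.4%, lay below that of all genes (51.4%), with 32.1% higher against 23.6% and 14.3% lower against 27.8%. The microfibril gene Fbn2 rose by 4.16 ± 0.16 and the versican gene Vcan by 4.08 ± 0.39, and the tenascin C gene Tnc, not detected in normal brain, was at least 6.54-fold higher. The link protein genes Hapln1 and Hapln4, whose products tie proteoglycans to hyaluronan, fell, with differences of -2.92 ± 0.30 and -2.72 ± 0.34, whereas the link protein gene Hapln3 rose by 0.71 ± 0.17 and Hapln2 was not called (-2.06 ± 0.70, adjusted p = 0.0579). The laminin gene Lama2 fell, with a difference of -2.42 ± 0.18.

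Markers of the cells that a brain sample holds were compared as levels averaged over short lists. Beside the counts called, 23.6% of all tested genes were higher in glioma and 27.8% lower. All 6 oligodendrocyte progenitor markers and all 5 proliferation markers were higher in glioma, the first with mean levels of 5.31 to 5.59 against 1.82 to 1.88. All 6 oligodendrocyte and all 6 choroid plexus markers were lower, the latter at -4.71 to -4.19 against 2.87 to 2.96. Of 7 endothelial markers 6 were lower, at -0.70 to -0.57 against 0.67 to 0.75. Astrocyte markers were lower in 3 of 7 cases (42.9%). Microglia markers were higher in 2 of 7 (28.6%, near the share of all genes), at 2.42 to 3.92 against 2.33 to 2.38. The part of these differences in those of the proteases and inhibitors was not tested. The file headers place every array on the same slide, scanned once, with gliomas in row 1 and normal brain in row 2, so slide row and group cannot be told apart. The share of spots detected was 65.9% to 70.3% on glioma arrays and 61.5% to 64.0% on normal brain arrays, and no spot was saturated. Precision is limited by how few arrays there are.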

How the data were processed

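The authors' scanner files give spot intensity from Agilent Feature Extraction, version 10.7.3.1 in the submitters' processing notes. The processed signal is, per the file headers, background-subtracted, without a recorded scaling of arrays to each other. Deposited 0 or 1 flags mark detection, saturation and outliers. The authors' value table holds log2 values, equal to the log2 processed signal (median difference 0, r = 1 on every array). Here control spots were dropped, spots of a probe were averaged, 23 probes with outlier flags were left out, and each array's 75th percentile was subtracted. Of 55681 probes, 28019 were named by RefSeq accession (GRCm38.p6 table). Each gene took its brightest probe, kept if well above background on at least 2 arrays. Groups were compared with limma 3.58.1 (lmFit, eBayes, two-sided, Benjamini-Hochberg) in R 4.3.3, checked on simulated data. Members and lists were chosen with earlier results of these data known. Array values are given for every called member, all TIMPs, both gelatinases, membrane-type MMPs and proteoglycan-cleaving ADAMTS genes, except undetected ones, and up to 3 called genes per direction of each list. Upstream sequences, their motifs, the chromosome 9 run and the second probes were chosen after values were seen. Upstream sequences are RefSeq's; of a gene's several windows the highest count was used.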

Additional observations from a re-analysis of the deposited data

How the results depend on the processing

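The counts of 13 higher and 16 lower members stayed within 1.5 times under most alternatives. Exceptions were the filter to probes detected on all arrays, with 8 higher members of 28 tested, and the number of lower members in the fits without a normal brain array. The fits without a glioma array gave 11 to 13 higher and 14 to 16 lower. In the fits that left out a normal brain array, the normal brain group was a single sample assumed to vary like the gliomas. Without any filter, 19 members were lower, and those added were detected on fewer than 2 arrays, so their differences rest mainly on undetected signal. Of the 29 called members, 16 were called under all alternatives that could test them, and 13 lost the call in at least 1 leave-one-out fit, all 13 of them without 1 of the normal brain arrays. Reversals of direction concerned Timp2 with averaged probes (0.17), Adamts3 without scaling (0.19) and without glioma replicate 1 (0.09), and Adamts17 (-0.58) and Mmp11 (-0.10) without glioma replicate 3 and with the replicate block. Over the leave-one-out fits these 3 genes ranged from -0.45 to 0.09, from -0.58 to 0.72 and from -0.10 to 0.25. Whether the replicate numbers pair the samples cannot be told from these arrays. Deviations from the group mean correlated at 0.038 and 0.039 between samples of the same number. With 2 normal brain arrays, their deviations mirror each other, so these values cannot decide it. With the replicate block, in which glioma 3 has no partner and does not enter the difference, 13 members were higher and 15 lower, Timp2 was no longer called (adjusted p = 0.0506), and 11 activators and inhibitors were higher. Normexp correction was run on median spot signals and was followed by quantile normalization wherever it is named here. Median signals were chosen after seeing that the files hold no mean signal, and the planned fit on mean signals was not run. Normexp with quantile normalization gave 12 higher members, without Timp1. Signal over background limits Mmp9, Mmp16, Adamts6, Adamts7, Adamts13 and Adamtsl3 to bounds.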
